A study of Mus musculus with 5 samples.

Results

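The RNAs described here are the 37 transcripts encoded by the mouse mitochondrial genome. They were chosen as every row of the deposited table whose gene name begins with mt-, which gave 37 of 53927 genes. They divide into 2 ribosomal RNAs (rRNAs), 13 messenger RNAs (mRNAs) and 22 transfer RNAs (tRNAs). The cells were primary nephron progenitor cells, the embryonic kidney cells that self-renew and give rise to nephrons, isolated from C57BL/6J embryos and passaged 1 time in culture. The Dis3l2-/- libraries (KO, n = 3) lack a 3'-to-5' exonuclease that degrades uridylated RNA in the cytoplasm, and the Dis3l2+/+ libraries (WT, n = 2) carry both intact copies. Neither the extent of the Dis3l2 deletion nor a separate embryo behind each library is stated in the labels, so p-values reflect only how far these libraries vary, and some of that variation may be technical.

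Total RNA was made into stranded libraries and read as 50-base single-end reads. Levels are CPM, read counts scaled by an effective library size, as deposited. The depth, read from the steps between low values, was 49.25, 32.23 and 19.61 M assigned reads in KO replicates 1, 2 and 3, and 22.34 and 28.26 M in WT replicates 1 and 2. Dis3l2 had 6.5, 4.93 and 4.70 CPM in KO and 16.04 and 12.18 CPM in WT. Of the progenitor markers, Eya1 had 194 to 248 CPM in KO and 168 to 274 CPM in WT, and Itga8 had 356 to 471 CPM in KO and 438 to 441 CPM in WT. Osr1 had 41.5, 64.6 and 27.3 CPM in KO and 22.3 and 19.5 CPM in WT, with no overlap, and Cited1 had 2.73 to 17.1 CPM in KO and 1.40 to 15.2 CPM in WT. Pax2, also a defining marker, had only 0.21 to 0.66 CPM in KO and 0.05 to 0.18 CPM in WT. Summed over lists, 5 leukocyte markers came to 4.95 to 5.69 CPM in KO and 7.21 to 7.65 CPM in WT, with Ptprc at or near 0. The sum of 8 renal stroma markers was 634 to 822 CPM in KO and 823 to 1135 CPM in WT, and the 10 progenitor markers summed to 747 to 906 CPM in KO and 730 to 923 CPM in WT. The 6 ureteric bud markers summed to 7.10 to 13.3 CPM in KO and 5.23 to 8.61 CPM in WT, and the 5 endothelial ones to 39.1 to 59.2 CPM in KO and 47.7 to 71.4 CPM in WT. The 5 erythroid markers stood at 0.00 to 4.41 CPM in KO and 0.00 to 2.04 CPM in WT. The leukocyte sum was lower in every KO library than in both WT libraries, the stroma sums of KO replicate 2 and WT replicate 1 were nearly equal (822.2 and 822.8 CPM), and the other 4 sums overlapped. Single markers of a list went different ways. Among the stroma markers Aldh1a2 (log2 fold change -0.93) and Pdgfra (-0.65) were lower in every KO library, and Ntn1 was higher in every KO library (1.48). Among the leukocyte markers Mrc1 (-0.66) and Cd68 (-0.35) were lower in every KO library, and Csf1r overlapped (0.23). None of them passed the limma threshold. The part of these differences in the results below was not tested.

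Mitochondrial DNA is a small circular genome, and transcription of each of its strands gives long precursor RNAs. In most places tRNAs lie between the rRNA and mRNA genes, and their excision by RNase P and RNase Z at either end releases the mature RNAs. The rRNAs build the mitochondrial ribosome, the tRNAs serve it, and the mRNAs encode core subunits of the respiratory chain and the ATP synthase. In nephron progenitors a high rate of glycolysis is known to go with self-renewal.

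The 2 rRNAs took up much of every library and less of each KO library than of either WT library, while the mRNA and tRNA shares overlapped between genotypes. The rRNAs made up 31.5%, 32.7% and 32.9% of the column sum in KO and 40.7% and 38.9% in WT, with means of 32.4 ± 0.736% (SD, n = 3) and 39.8 ± 1.21% (SD, n = 2). The mRNAs made up 1.24%, 1.31% and 1.31% in KO and 1.31% and 1.29% in WT, and the tRNAs 0.00253%, 0.00212% and 0.00289% in KO and 0.00251% and 0.00242% in WT. For rRNA the gap between the genotypes exceeded the range within either of them. Exact 95% binomial intervals on these shares reached at most 0.0208 percentage points to either side for rRNA, 0.00503 for mRNA and 0.000241 for tRNA. Intervals and floors here cover counting error only. In bulk RNA fewer mitochondria, fewer cells of a type and less RNA per cell cannot be told apart. Whether these libraries went through rRNA removal is unknown, and the part of such a step in the rRNA shares was not tested.

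**Figure D1:**
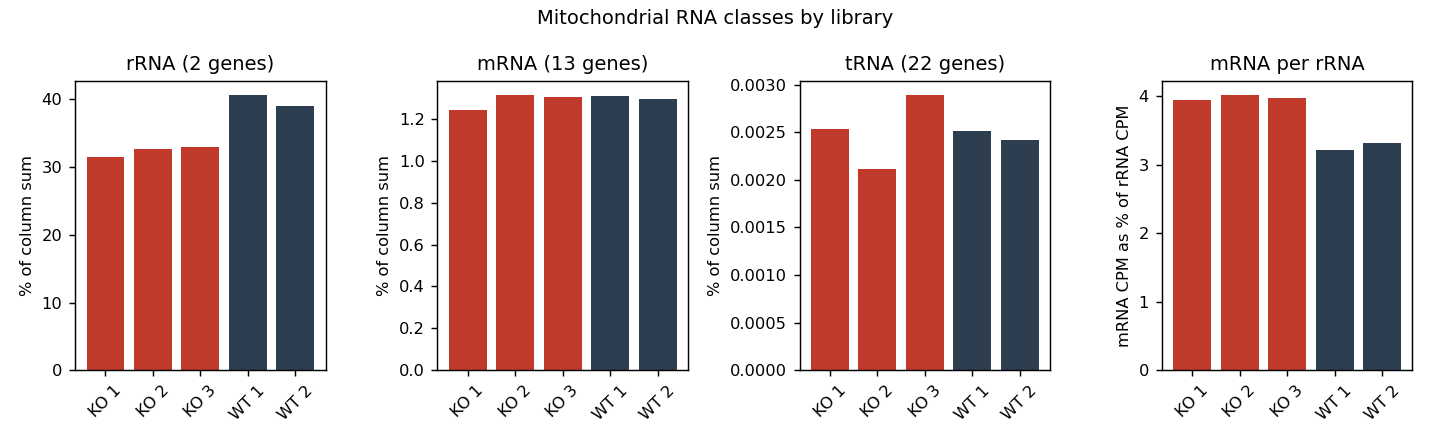
Bars give, for each library, the summed level of the 2 rRNAs, 13 mRNAs and 22 tRNAs as a percentage of the column sum, and the summed mRNA CPM as a percentage of the summed rRNA CPM. Red bars are the 3 KO libraries and dark bars the 2 WT libraries. The rRNA share is 31.5% to 32.9% in KO and 38.9% to 40.7% in WT, and the mRNA to rRNA ratio is 3.94% to 4.02% in KO and 3.21% to 3.32% in WT.

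The ratio of mRNA to rRNA needs no denominator outside the mitochondrion. It was 3.94%, 4.02% and 3.97% in KO and 3.21% and 3.32% in WT, a mean of 3.97 ± 0.0395% (SD, n = 3) against 3.27 ± 0.0747% (SD, n = 2). The KO libraries lay close together and above both WT libraries, and the difference of 0.708 percentage points exceeded both SDs. The part of any rRNA removal in this ratio was not tested either. The ratio of tRNA to mRNA overlapped, at 0.161% to 0.222% in KO and 0.187% to 0.192% in WT. No p-value is given for sums over genes chosen for description, and with 3 against 2 libraries an exact permutation test cannot go below 0.1.

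Shares of a sum depend on what else is in it. The nuclear 7SK RNA, Rn7sk, which holds back transcription elongation, took 11.87%, 6.48% and 2.27% of the KO libraries and 3.83% and 3.51% of the WT libraries. With Rn7sk left out of the sum, the rRNA share was 35.8%, 35.0% and 33.7% in KO and 42.3% and 40.4% in WT, again with no overlap. The mRNA share behaved differently. Taken over the column sum without the rRNAs, it was 1.82%, 1.95% and 1.95% in KO and 2.20% and 2.12% in WT. Without both the rRNAs and Rn7sk it was 2.20%, 2.16% and 2.01% in KO and 2.35% and 2.25% in WT. On both of these denominators the KO libraries lay below the WT libraries, whereas on the whole sum and in CPM the genotypes overlapped, so the direction for the mRNAs depends on the scaling. The libraries also differed in the X-inactivation RNA Xist, at 872, 765 and 0.52 CPM in KO and 0.93 and 951 CPM in WT. The rRNA share was 31.5% and 32.7% in KO against 38.9% in WT where Xist was high, and 32.9% in KO against 40.7% in WT where it was low.

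Gene by gene, none of the mitochondrial RNAs passed the test between genotypes. Differences were tested with limma on log2(CPM + 1) across 14884 genes that reached 0.5 CPM in 2 or more libraries, and 1 gene passed after Benjamini-Hochberg adjustment, a background of 0.00672%. That gene was the nuclear vault RNA gene Vaultrc5, named here after its values were seen. Dis3l2 itself, the gene deleted in KO, did not pass (log2 fold change -1.24, limma unadjusted p = 0.000616, adjusted p = 0.954). Its FDR in the authors' deposited table was 0.00855. A gene that does not pass here can therefore still differ between genotypes. Of the 37 mitochondrial genes 25 were tested, made up of both rRNAs, all 13 mRNAs and 10 tRNAs. With limma 0 of the 25 had an adjusted p under 0.05 and 0 had an unadjusted p under 0.05, where 1.5% of all genes were higher and 1.27% lower at that unadjusted level. In the authors' deposited table none of the 37 (0 genes) had an FDR under 0.05, against 0.0315% of all genes, or a p-value under 0.05, against 2.22%. Both shares are over all 53927 genes, of which 25172 were at 0 in every library, as were 3 of the 37. The fold changes ran from -0.36 to 0.44 on the log2 scale, with a median of -0.09, beside a median of 0.01 over all genes tested. The KO libraries were all lower than both WT libraries for 4 of the 25, where the background over all genes is 6.98%, and all higher for 1, where it is 7.85%. The 4 were the rRNAs mt-Rnr1 and mt-Rnr2 and the complex I mRNAs mt-Nd2 and mt-Nd5, and the 1 was mt-Nd3.

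**Figure D2:**
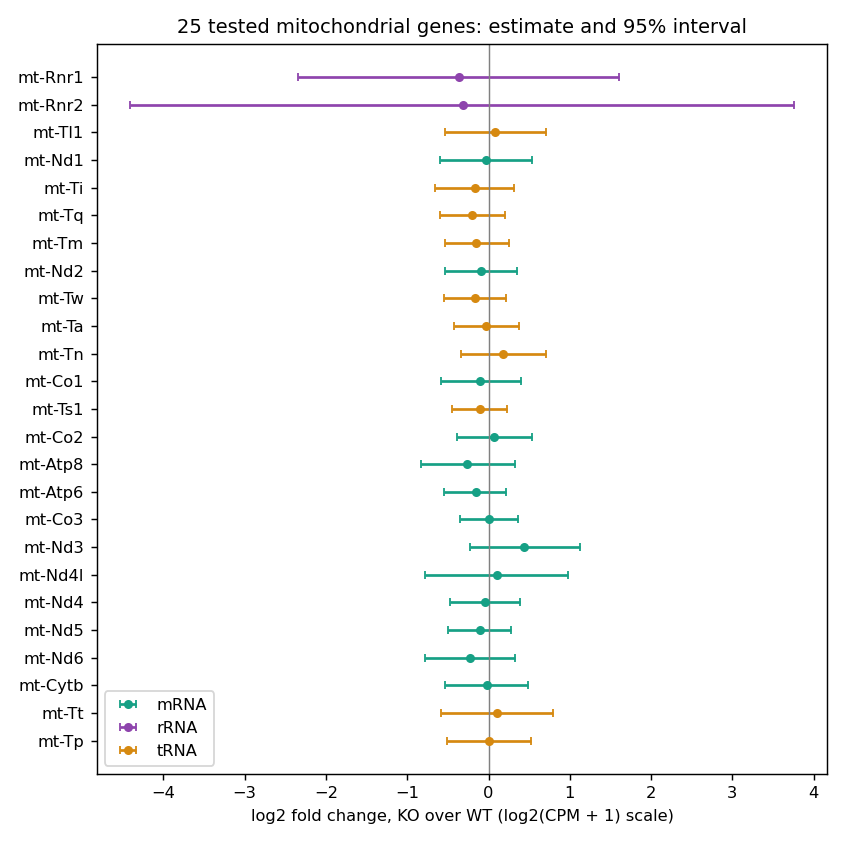
Points are log2 fold changes of KO over WT on the log2(CPM + 1) scale from limma, with bars for the 95% interval, for the 25 tested mitochondrial genes in genome order from top to bottom. Colours mark rRNA, mRNA and tRNA. Every interval includes 0, and those of mt-Rnr1 and mt-Rnr2 are the widest, from -2.34 to 1.61 and from -4.41 to 3.76.

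The rRNA genes lie on either side of the valine tRNA gene, mt-Tv. mt-Rnr1 (ENSMUSG00000064337.1, chrM:70-1024, plus strand, GRCm38), the 12S RNA of the small ribosomal subunit, had 62421, 63820 and 54545 CPM in KO and 74797 and 79937 CPM in WT. mt-Rnr2 (ENSMUSG00000064339.1, chrM:1094-2675, plus strand), the 16S RNA of the large subunit, had 268692, 264990 and 248959 CPM in KO and 346489 and 306403 CPM in WT. In both genes all KO libraries were below all WT libraries, and KO replicate 3 was the lowest. The log2 fold change was -0.36 for mt-Rnr1, with a standard error of 0.83, and -0.32 for mt-Rnr2, with a standard error of 1.72 (adjusted p = 1.00 for each, limma with Benjamini-Hochberg adjustment). These errors depend on limma's trend of variance on level. In a fit without the trend, added after the data were seen, the standard errors were 0.15 and 0.14 with unadjusted p-values of 0.0453 and 0.0604 (adjusted p = 1.00 for each, limma). Between the rRNAs the balance did not separate the genotypes. The CPM of mt-Rnr2 was 4.30, 4.15 and 4.56 times that of mt-Rnr1 in KO and 4.63 and 3.83 times in WT. The WT libraries differed more from each other in this ratio than the KO libraries did.

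Several mitochondrial mRNAs share their sequence with nuclear pseudogenes that have rows of their own in the table. A segment of chromosome 1 carries 7 annotated pseudogenes, on the minus strand between 24611535 and 24616197, that follow the order of mitochondrial genes. Aligned to their mitochondrial counterparts, 5 had 0 mismatches over their aligned length and 2 had 1 mismatch each. The identical ones were Gm28661 to mt-Co2 over 681 bases, Gm10925 to mt-Atp6 over 678, Gm28437 to mt-Co3 over 783, Gm10222 to mt-Nd4l over 294 and Gm28439 to the first 876 bases of mt-Nd4. Gm28438 differed from mt-Nd3 by T3C over 345 bases, and Gm29216 from the end of mt-Co1 by A1066T over 483, with positions counted from 1 at the 5′ end of the mitochondrial gene and its base given first. The sequences below, from GENCODE release M21 (GRCm38), are shown because they hold identical stretches longer than a read. In mt-Nd4l (chrM:9877-10173, plus strand) the capitals mark the bases that the overlapping mt-Nd4 gene also covers, and Gm10222 (chr1:24612407-24612700, minus strand) has no capitals. The last pair are the first 60 bases of mt-Nd3 (chrM:9459-9518, plus strand) and Gm28438 (chr1:24613060-24613119, minus strand), with the differing base in capitals.
mt-Nd4l: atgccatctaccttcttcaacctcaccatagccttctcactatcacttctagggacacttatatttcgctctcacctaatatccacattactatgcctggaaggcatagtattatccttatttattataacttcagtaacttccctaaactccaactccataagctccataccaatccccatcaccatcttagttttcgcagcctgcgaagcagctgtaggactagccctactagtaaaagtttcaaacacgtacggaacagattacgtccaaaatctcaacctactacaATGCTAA
Gm10222: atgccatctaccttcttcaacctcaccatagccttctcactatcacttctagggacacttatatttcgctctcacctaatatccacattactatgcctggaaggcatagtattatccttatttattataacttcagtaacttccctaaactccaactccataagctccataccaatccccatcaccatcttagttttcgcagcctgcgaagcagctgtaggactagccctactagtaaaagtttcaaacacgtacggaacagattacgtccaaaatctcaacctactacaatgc
mt-Nd3: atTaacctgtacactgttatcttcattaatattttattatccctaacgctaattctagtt
Gm28438: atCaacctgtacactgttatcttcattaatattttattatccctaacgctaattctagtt

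Every 50-base window of each mitochondrial gene, the length of a read, was looked up in all other annotated transcripts on either strand. For 5 mRNAs nearly every window was also found elsewhere, which were mt-Co2 (100%), mt-Co3 (99.9%), mt-Atp6 (99.5%), mt-Nd4l (98.8%) and mt-Nd3 (293 of 299 windows). The share was 62.2% for mt-Nd4 and 51.1% for mt-Co1, 8.2% for mt-Nd2 and 7.6% for mt-Nd5. It was 0 for mt-Nd1, mt-Cytb, mt-Nd6 and mt-Atp8 and for all 22 tRNAs. Among the rRNAs, mt-Rnr1 had 0 and mt-Rnr2 1.0%, in Gm20594. Sequence outside annotated transcripts was not searched.

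The chromosome 1 rows held more than the mitochondrial rows for those 5 mRNAs, in every library. Of the summed CPM of a mitochondrial row and its copy row, the copy row took 96.7% to 97.5% for mt-Co3, 85.7% to 89.9% for mt-Co2 and 85.7% to 88.3% for mt-Atp6 over the 5 libraries. It took 75.0% to 85.3% for mt-Nd4l and 52.3% to 66.0% for mt-Nd3, and 10.8% to 14.8% for mt-Nd4 and 16.3% to 17.2% for mt-Co1. The share differed more between genes than between libraries. The 7 copy rows together held 5158, 5797 and 5726 CPM in KO and 5285 and 5174 CPM in WT, beside 13045, 13209 and 12035 CPM in KO and 13536 and 12822 CPM in WT for the 13 mRNA rows. The sources used here do not give how reads with several matches were counted, and transcripts of the nuclear copies cannot be told apart from mitochondrial ones. Further annotated pseudogenes shared windows with mt-Co1 (Gm13340, 529 CPM in KO and 571 CPM in WT on average) and with mt-Nd2 (Gm13339, 43.9 CPM in KO and 54.5 CPM in WT).

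**Figure D3:**
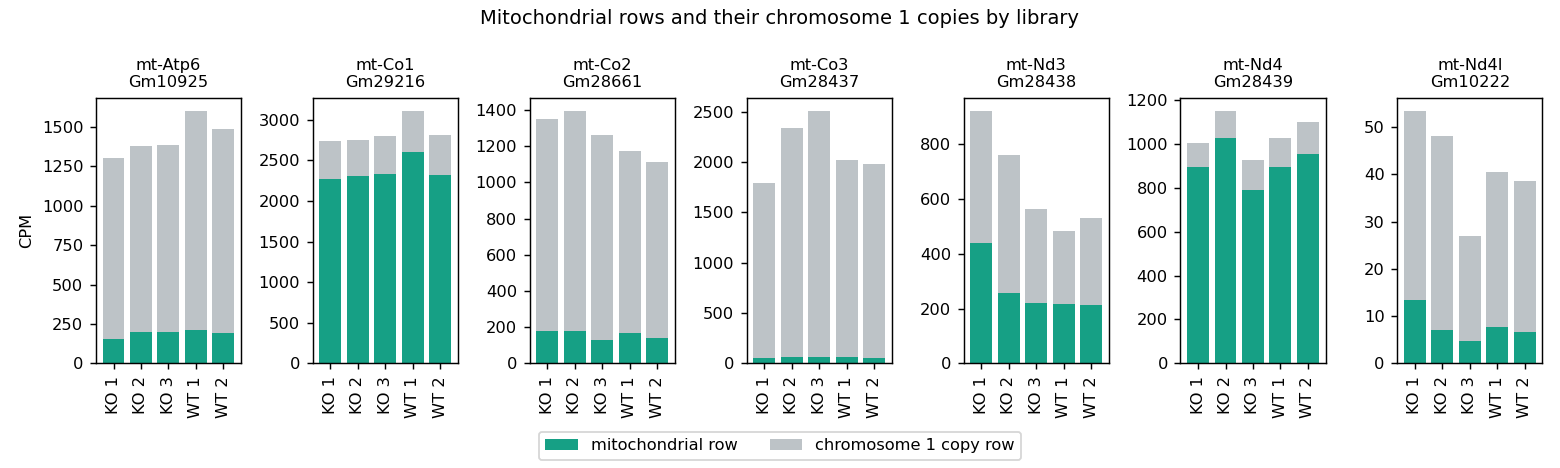
Each panel stacks, by library, the CPM of a mitochondrial mRNA row (green) and of its chromosome 1 copy row (grey), with KO libraries to the left of WT libraries and a CPM axis of its own. The copy row is the larger part for mt-Atp6, mt-Co2, mt-Co3, mt-Nd3 and mt-Nd4l in every library, and the smaller for mt-Co1 and mt-Nd4.

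Read per length, several mRNAs took another place in the order of levels when their copy rows were added. As deposited, mt-Nd1, a core subunit of complex I at the start of the mRNA block, averaged 3696 CPM per kilobase in KO and 3780 in WT, while mt-Co3, a core subunit of cytochrome c oxidase, averaged 78.3 in both. With its copy row added, mt-Co3 stood at 2822 CPM per kilobase in KO and 2552 in WT, next below mt-Nd1. The same sum gave mt-Co2 1953 in KO and 1669 in WT, and mt-Atp6 1992 in KO and 2271 in WT. Cytochrome b, mt-Cytb, with no shared window, had 2322 CPM per kilobase in KO and 2353 in WT. Several complex I mRNAs stayed lower on this scale. With its copy row mt-Nd4 had 747 CPM per kilobase in KO and 773 in WT, and mt-Nd4l had 144 in KO and 133 in WT. Without an annotated copy in that segment, mt-Nd5 had 523 CPM per kilobase in KO and 565 in WT, and mt-Nd6 had 179 in KO and 206 in WT.

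**Figure D4:**
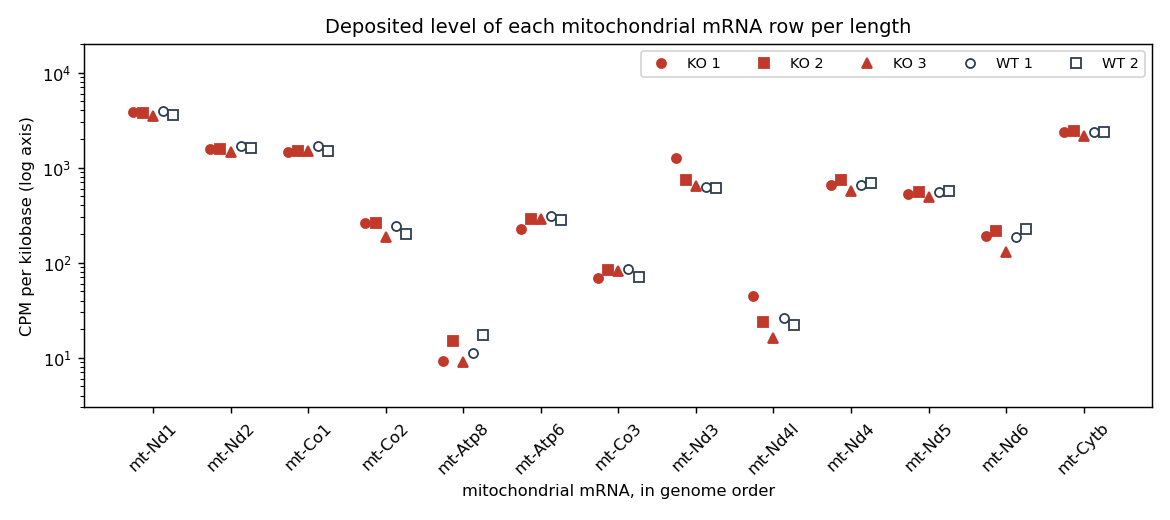
Each marker is the deposited CPM of a mitochondrial mRNA row divided by its length in kilobases, in a single library, on a log axis, with genes in genome order. Filled red markers are the KO libraries and open dark markers the WT libraries. The low rows include mt-Co2, mt-Atp6, mt-Co3 and mt-Nd4l, whose copies hold most of the summed reads, and mt-Atp8, which overlaps mt-Atp6.

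Complex I, the NADH dehydrogenase that feeds electrons into the chain, has 7 mitochondrial mRNAs, which took 58.9%, 57.9% and 56.9% of the mRNA CPM in KO and 57.4% and 57.9% in WT. mt-Nd1 (chrM:2751-3707) had 3646, 3601 and 3365 CPM in KO and 3794 and 3440 CPM in WT. mt-Nd2 (chrM:3914-4951) had 1628, 1647 and 1499 CPM in KO and 1742 and 1651 CPM in WT, and the closest KO and WT libraries were nearly equal. mt-Nd5 (chrM:11742-13565) had 958, 1000.4 and 904 CPM in KO and 1022 and 1039.5 CPM in WT, again with no overlap and a narrow gap. The log2 fold changes were -0.03 for mt-Nd1, -0.09 for mt-Nd2 and -0.11 for mt-Nd5, none of them past the test (limma). mt-Nd4 (chrM:10167-11544) had 896, 1028 and 791 CPM in KO and 898 and 955 CPM in WT, so that the KO libraries surrounded the WT libraries.

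mt-Nd3 (chrM:9459-9806), a small membrane subunit of complex I, had the largest positive fold change of the 25 tested mitochondrial genes. Its row held 441, 259 and 222 CPM in KO and 216 and 215 CPM in WT, a mean of 307 ± 117 (SD, n = 3) against 216 ± 1.20 (SD, n = 2). KO replicate 1 was far above the other libraries, and KO replicate 3 barely exceeded WT. The log2 fold change was 0.44 ± 0.28 (SE; limma adjusted p = 1.00), and 0.15 without KO replicate 1. Its copy row Gm28438 had 483, 502 and 341 CPM in KO and 266 and 317 CPM in WT, with no overlap and less weight on KO replicate 1. The log2 fold change of Gm28438 was 0.58 ± 0.21 (SE; limma unadjusted p = 0.0276, adjusted p = 1.00), where 1.5% of all genes were higher at an unadjusted p under 0.05. Row and copy together came to 924, 760 and 563 CPM in KO and 482 and 532 CPM in WT, and the summed row, an alternative added after the data were seen, gave 0.53 ± 0.23 on that scale (SE; limma adjusted p = 1.00).

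The remaining complex I mRNAs were the small mt-Nd4l and mt-Nd6, the only mRNA encoded on the light strand. mt-Nd4l had 13.4, 7.08 and 4.75 CPM in KO and 7.74 and 6.60 CPM in WT, with the highest and the lowest value both in KO. mt-Nd6 (chrM:13552-14070, minus strand), which lies opposite the end of mt-Nd5, had 99.0, 112 and 67.4 CPM in KO and 95.6 and 119 CPM in WT. Its level was 10.3%, 11.2% and 7.46% of that of mt-Nd5 in KO and 9.35% and 11.4% in WT. The sources used here do not say whether strand was used in counting, and the genes share their last bases on opposite strands.

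Cytochrome b, the mitochondrial subunit of complex III, was among the abundant mRNAs with a fold change close to 0. mt-Cytb (chrM:14145-15288) had 2702, 2808 and 2458 CPM in KO and 2703 and 2681 CPM in WT, a log2 fold change of -0.02 with a 95% interval from -0.54 to 0.49 (limma). It took 20.7%, 21.3% and 20.4% of the mRNA CPM in KO and 20.0% and 20.9% in WT.

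Complex IV, cytochrome c oxidase, draws its catalytic core from mt-Co1, mt-Co2 and mt-Co3. mt-Co1 (chrM:5328-6872) had 2274, 2305 and 2333 CPM in KO and 2607 and 2325 CPM in WT, with WT replicate 1 above the other libraries. mt-Co2 (chrM:7013-7696) had 179, 177 and 127 CPM in its own row in KO and 168 and 137 CPM in WT. Its copy row Gm28661 had 1171, 1220 and 1133 CPM in KO and 1004 and 974.6 CPM in WT, so the KO libraries were all above the WT libraries there and overlapped them in the mitochondrial row. The log2 fold change was 0.07 for mt-Co2 and 0.25 for Gm28661, with standard errors of 0.19 and 0.16, and neither passed (adjusted p = 1.00 for each, limma). mt-Co3 (chrM:8607-9390) had 54.6, 65.8 and 63.8 CPM in KO and 67.1 and 55.8 CPM in WT. Its copy row Gm28437 had 1733, 2274 and 2446 CPM in KO and 1955 and 1924 CPM in WT, with KO on both sides of WT.

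Complex V, the ATP synthase, takes the membrane subunits mt-Atp6 and mt-Atp8 from the mitochondrion, and their genes overlap. mt-Atp6 (chrM:7927-8607) had 152, 195 and 198 CPM in KO and 213 and 192 CPM in WT, and its copy row Gm10925 had 1153, 1184 and 1185 CPM in KO and 1392 and 1297 CPM in WT. The copy row was lower in every KO library than in both WT libraries, while the mitochondrial row overlapped. The log2 fold changes were -0.16 for mt-Atp6 and -0.19 for Gm10925 (adjusted p = 1.00 for each, limma). Complex V took 1.18%, 1.503% and 1.66% of the mRNA CPM in KO and 1.59% and 1.53% in WT, which overlapped. With the copy rows counted in, it took 7.18%, 7.28% and 7.80% of the mRNA CPM in KO and 8.54% and 8.29% in WT. Over the 7 genes, the sum of row and copy had no overlap between genotypes for mt-Nd3 and mt-Co2, with KO higher, and for mt-Atp6 and mt-Co1, with KO lower, and overlapped for mt-Nd4, mt-Nd4l and mt-Co3. For mt-Co1 the gap was narrow, with 2795 CPM in the highest KO library and 2807 CPM in the lowest WT library. Over all genes tested 7.85% were higher and 6.98% lower without overlap, and with 5 libraries these counts are a description.

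mt-Atp8 (chrM:7766-7969) was the lowest mRNA per length, at 11.1 CPM per kilobase in KO and 14.2 in WT. Its row held 1.90, 3.06 and 1.83 CPM in KO, from 89, 98 and 39 reads, and 2.27 and 3.51 CPM in WT, from 49 and 100 reads. The genotypes overlapped, at a log2 fold change of -0.26 ± 0.24 (SE; limma adjusted p = 1.00). Its sequence is shown because capitals mark the 43 of its 204 bases that mt-Atp6 also covers, where a read overlaps both genes. Of the read positions that touch mt-Atp8, 113 touch no other gene on that strand.
mt-Atp8: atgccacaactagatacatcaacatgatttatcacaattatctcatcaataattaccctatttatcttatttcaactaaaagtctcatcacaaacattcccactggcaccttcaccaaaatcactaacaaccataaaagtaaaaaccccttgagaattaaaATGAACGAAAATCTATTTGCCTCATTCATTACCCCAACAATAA

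The tRNAs were nearly absent from these libraries. All 22 together held 561 to 1248 reads per library, and mt-Tl1 alone gave 30.2% of the 3741 tRNA reads of the 5 libraries. mt-Tl1 (chrM:2676-2750), the leucine tRNA between mt-Rnr2 and mt-Nd1, had 7.52, 6.18 and 10.2 CPM in KO and 9.14 and 5.83 CPM in WT. mt-Tt, the threonine tRNA after mt-Cytb, had 5.92, 2.62 and 3.72 CPM in KO and 4.08 and 3.12 CPM in WT. For mt-Tt the KO libraries lay on either side of the WT libraries. For mt-Tl1 the genotypes overlapped, with the highest value in KO replicate 3 and the lowest in WT replicate 2. mt-Tp, the proline tRNA on the light strand, had 3.56, 2.37 and 3.67 CPM in KO and 2.74 and 3.58 CPM in WT, and mt-Ti, the isoleucine tRNA, had 2.39, 3.03 and 3.15 CPM in KO and 2.74 and 4.00 CPM in WT. These 4 tRNAs gave 71.6% of all tRNA reads. The 8 light-strand tRNAs took 29.4%, 32.5% and 24.7% of the tRNA CPM in KO and 25.5% and 33.2% in WT.

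The other 6 tRNAs that passed the filter averaged between 0.367 and 1.80 CPM in KO and between 0.475 and 1.495 CPM in WT. They were mt-Tn, mt-Tm, mt-Tw, mt-Ta, mt-Tq and mt-Ts1, for asparagine, methionine, tryptophan, alanine, glutamine and serine. Over the 10 tested tRNAs 0 passed and 0 had an unadjusted p under 0.05 (limma), 4 log2 fold changes were positive and 6 negative, and they ran from -0.20 to 0.18. In all 10 the genotypes overlapped. Of the 12 below the filter, 5 had more than 3 reads in some library, which were mt-Tv, mt-Tc, mt-Ty, mt-Td and mt-Te. A further 4, mt-Tf, mt-Tg, mt-Ts2 and mt-Tl2, had 1 to 3 reads in their highest library, at or under the floor of 3 reads.

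mt-Tk, mt-Tr and mt-Th, for lysine, arginine and histidine, had 0 reads in every library. A count of 0 allows up to 3 reads, which is 0.0639, 0.0936 and 0.141 CPM in KO replicates 1, 2 and 3 and 0.139 and 0.105 CPM in WT replicates 1 and 2. The tRNA genes are 59 to 75 bases long, little more than a read, and many lie directly against a neighbour. mt-Tl1 has 26 read positions that touch no other gene on its strand, mt-Tk has 20, mt-Tr has 21 and mt-Th has 19. Over the 5 libraries mt-Tl1 was assigned 43.5 reads for each such position. mt-Tf, the phenylalanine tRNA beside the control region, had 1 read in all. Its 69 such positions include reads that cross base 1 of the circular genome, where a linear reference is cut. Whether such reads could be aligned was not tested. Wholly inside mt-Tf lie 19 read positions. The sequences are those of the tRNA with the most reads and of the 3 with none, followed by mt-Ti (chrM:3706-3774), where capitals mark the 5 bases that its neighbours also cover on either strand, and the others have no capitals. mt-Tk lies at chrM:7700-7764, mt-Tr at chrM:9808-9875 and mt-Th at chrM:11546-11612, all on the plus strand.
mt-Tl1: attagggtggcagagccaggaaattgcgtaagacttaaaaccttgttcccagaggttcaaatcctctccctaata
mt-Tk: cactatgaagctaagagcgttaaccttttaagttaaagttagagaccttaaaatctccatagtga
mt-Tr: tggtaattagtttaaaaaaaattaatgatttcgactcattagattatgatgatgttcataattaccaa
mt-Th: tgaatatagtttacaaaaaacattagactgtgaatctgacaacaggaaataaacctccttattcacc
mt-Ti: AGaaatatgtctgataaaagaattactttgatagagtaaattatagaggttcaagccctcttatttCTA

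**Figure D5:**
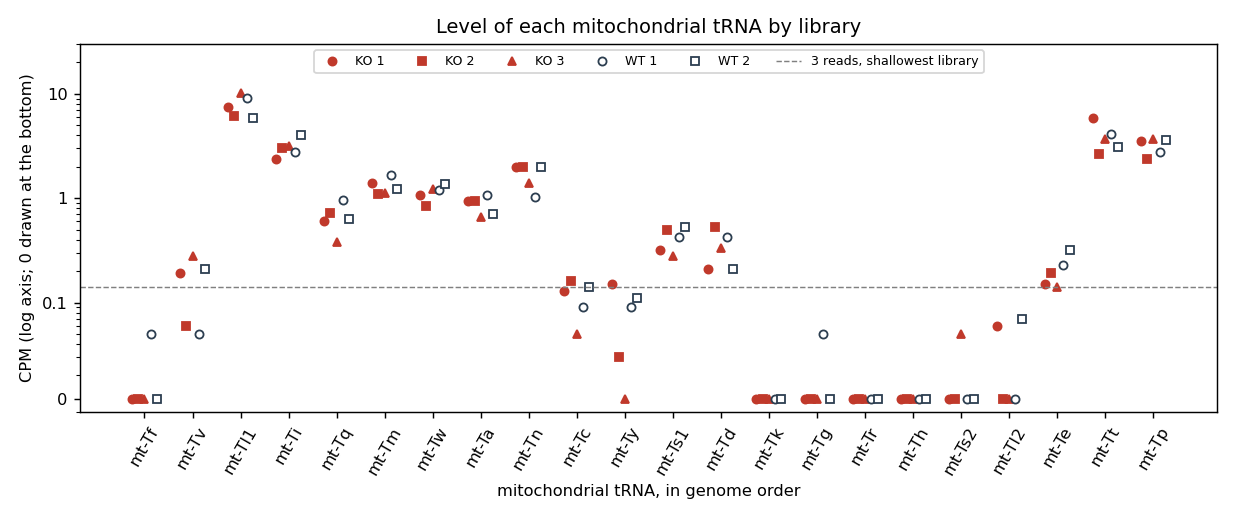
Each marker is the CPM of a mitochondrial tRNA in a single library, on a log axis with values of 0 drawn at the bottom. Filled red markers are KO libraries, open dark markers are WT libraries, and the dashed line is the level of 3 reads in the shallowest library. mt-Tl1, mt-Tt, mt-Tp and mt-Ti stand highest, and mt-Tk, mt-Tr and mt-Th are at 0 in all 5 libraries.

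The nuclear genes that make, process and degrade mitochondrial RNA were taken from lists and read from the same fit. Of 18 genes for transcription and replication of mitochondrial DNA, 19 measured for RNA processing and modification, 15 for stability and decay, 17 tRNA synthetases and 7 regulators of mitochondrial biogenesis, 0 passed over all genes (limma), and 1 synthetase gene, Nars2, had an unadjusted p under 0.05. The median log2 fold changes of the 5 lists were -0.04, -0.11, -0.07, -0.05 and -0.01, beside 0.01 over all genes. Tfam, which packages mitochondrial DNA and starts its transcription, had 35.7, 30.2 and 31.6 CPM in KO and 36.0 and 28.4 CPM in WT, with the genotypes overlapping. Polrmt, the mitochondrial RNA polymerase, had 14.1, 12.1 and 6.68 CPM in KO and 8.63 and 9.02 CPM in WT. Slirp, which with Lrpprc stabilises mitochondrial mRNAs, had 58.6, 61.3 and 54.0 CPM in KO and 48.5 and 49.9 CPM in WT, at a log2 fold change of 0.23 ± 0.12 (SE). Lrpprc itself overlapped, at 73.2, 61.9 and 67.3 CPM in KO and 67.8 and 60.1 CPM in WT.

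The list for RNA processing and modification had 6 positive and 13 negative log2 fold changes. In that list Nsun4, an rRNA methyltransferase that also helps join the ribosomal subunits, had the smallest unadjusted p (0.115, limma). It held 14.5, 13.3 and 12.9 CPM in KO and 15.9 and 17.2 CPM in WT. The log2 fold change was -0.27 ± 0.15 (SE; limma adjusted p = 1.00). Nars2, the mitochondrial asparaginyl-tRNA synthetase, had 6.56, 6.11 and 7.15 CPM in KO and 10.4 and 8.43 CPM in WT, at a log2 fold change of -0.45 ± 0.18 (SE; limma adjusted p = 1.00). Polg2, the accessory subunit of the mitochondrial DNA polymerase, had 3.81, 4.34 and 3.72 CPM in KO and 5.01 and 4.67 CPM in WT. In these 3 genes the genotypes did not overlap, and none passed over all genes. All KO libraries were lower than both WT libraries for 2, 4, 1, 1 and 1 genes of the 5 lists in the order above, and higher than both for 0, 0, 1, 1 and 0, where the backgrounds are 6.98% and 7.85%.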

How the data were processed

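The deposited table gives 53927 genes in 5 libraries (3 KO, 2 WT). Per the submitters' processing notes, the authors used HISAT2 2.1.0, featureCounts and edgeR 3.20.1 on build mm10, the same assembly as GRCm38. The sources used here do not give the annotation release, the strand setting, any rRNA removal, the normalization method or the treatment of reads with several matches or over several genes. Per-library values are the authors' deposited signal, CPM scaled by effective library sizes and given with 2 decimals. The column sums run from 922182 to 1049559 and their product, each per M, is 1.000. The deposited table also holds the authors' log2 values (fold change, average CPM), likelihood ratio score, p-value and FDR.

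Low values lie on steps of 1 read, within 0.0055 CPM, which gave the depths. Rounding takes up more of each step in the deeper libraries. The deposited values are normalized, not counts, so no count model was run. The test was limma 3.58.1 (R 4.3.3) with its trend option, two-sided, for 14884 genes that reached 0.5 CPM in 2 or more libraries. Values entered as log2(CPM + 1), genotype was the single term, and p-values had Benjamini-Hochberg adjustment with a threshold of 0.05. This scale understates changes of low genes. The steps were tested on simulated data. Levels per kilobase use GENCODE M21 gene lengths. Copies were aligned with Biopython 1.88, and 50-base windows were matched exactly. All 37 members are named; from the nuclear lists up to 4 genes with the smallest p were eligible, and Tfam and Lrpprc were named after their values were seen. An item of these lists is not reported here. The members and lists were chosen with earlier results of these data known. Scaling, filter, pseudocount, replicate block and leaving out each library were tried as alternatives.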

Additional observations from a re-analysis of the deposited data

How the results depend on the processing

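Under every alternative tried, the number of the 37 mitochondrial genes past the threshold stayed at 0. The number of all genes past it was 1, and 0 with a pseudocount of 5, without the filter, with median-of-ratios scaling, or with limma without trend, the last chosen after the data were seen. It ran from 0 to 8 on leaving out a library, with 5 without KO replicate 1, 8 without KO replicate 3 and 0 without KO replicate 2, WT replicate 1 or WT replicate 2. With a replicate block it was 390, among them the mt-Nd3 copy Gm28438 (log2 fold change 0.76, adjusted p = 0.0396, limma). Replicate 3 exists only in KO, so the block sets that library apart. Its fold changes therefore equal those without KO replicate 3. No label says what the numbers share, and with 2 pairs (deviations correlated at 0.414 and 0.537) the pairing could not be established.

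As log2 of the KO mean over the WT mean, the rRNA share was -0.297, -0.247 without Rn7sk in the sum, and -0.328 to -0.266 leaving out a library. Over the sum without the rRNAs the value was -0.465, and without the rRNAs and Rn7sk it was -0.399. These 2 are ratios of rRNA to other RNA, not shares. The mRNA share was -0.013, and 0.037, -0.181 and -0.115 on the same denominators, 0.028 with nuclear copy rows added (chosen after the data were seen), and -0.029 to 0.011 leaving out a library. The mRNA to rRNA ratio was 0.283, 0.324 with copies and 0.260 to 0.307 leaving out a library. The mt-Rnr2 to mt-Rnr1 ratio was 0.036, and 0.179 without WT replicate 1 and -0.094 without WT replicate 2. The cause of these shifts was not tested.

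Among single genes, none of them called, signs turned on leaving out a library, with ranges of log2 fold changes of -0.10 to 0.04 for mt-Nd1, -0.08 to 0.23 for mt-Co2, -0.26 to 0.40 for mt-Nd4l, -0.14 to 0.05 for mt-Nd4, -0.06 to 0.03 for mt-Cytb, -0.20 to 0.37 for mt-Tl1, -0.38 to 0.04 for mt-Ti, -0.17 to 0.12 for mt-Ta, -0.09 to 0.46 for mt-Tn, -0.15 to 0.32 for mt-Tt, -0.14 to 0.16 for mt-Tp, -0.11 to 0.32 for Gm10222 and -0.11 to 0.21 for the nuclear Nrf1. With the replicate block signs turned for mt-Tl1 (-0.09), mt-Ta (0.05), mt-Nd4 (0.05), mt-Cytb (0.03) and mt-Tp (-0.08), with median-of-ratios factors for mt-Tp (-0.01), and without the rRNAs and Rn7sk for mt-Tp (-0.05), Gm10222 (-0.03) and Nrf1 (-0.01). For mt-Co3, at 0.00 with all libraries, the log2 fold change ran from -0.13 to 0.13 on leaving out a library. The 5 libraries limit every comparison. The 22 tRNAs rest on 561 to 1248 reads per library, and what keeps their counts low was not tested.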
